A study of Mus musculus with 8 samples.

Results

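The intercalated disc joins neighbouring cardiomyocytes end to end, and 10 of its genes were followed in the neonatal mouse heart: the connexin genes Gja1, Gja5 and Gjc1 of gap junctions, the desmosomal genes Dsp, Pkp2, Jup, Dsg2 and Dsc2, and Cdh2 and Ctnna3 of the adherens junction. They were taken by gene symbol from the 80155 loci measured, 39614 of which carry a symbol, and each of the 10 matched 1 locus. Whole hearts of male Hsd:ICR(CD-1) mice, an outbred stock, were profiled by RNA-seq, with 4 hearts at postnatal day 1 (P1) and 4 at postnatal day 7 (P7), 1 library per heart. Values of single hearts are listed in the order of the replicate numbers, 1 to 4. The animals carried no named allele and received no treatment, the atrial appendages had been cut away in every heart, and age was the only difference named between the groups. The comparison asks how the heart changes over the first postnatal week. Levels are given in FPKM, which counts the fragments of a gene relative to its length and to the size of the library, so that they can be set side by side between genes.

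In the adult ventricle, gap junctions, desmosomes and adherens junctions lie together in the disc. Connexins pass current from cell to cell. Desmosomes tie the membranes to desmin filaments through the transmembrane cadherins desmoglein and desmocollin, the armadillo proteins plakoglobin and plakophilin, and the linker desmoplakin. N-cadherin holds the adherens junction, and catenins couple it to actin. In rodents, the junctions of newborn cardiomyocytes are spread along the cell border and gather at the cell ends in the weeks after birth, a change of position that RNA levels do not show.

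The hearts expressed 8 cardiomyocyte genes fixed as markers at 8446 to 15490 FPKM in sum. Atrial genes were present at both stages although the appendages had been removed, with Myl7 at 1100 to 1446 FPKM. The files hold no counts and the number of fragments behind each value is unknown. The size factors of the hearts over loci with a symbol ran from 0.776 to 1.30 and P1 heart 4 had the highest of the P1 hearts, 1.16. That heart had the highest P1 value of 9 of the 10 members, the exception being Gja1. P1 heart 3 had the lowest size factor, 0.776, and the lowest P1 value of every member. It also had 28662 loci at 1 FPKM or more, against 20269 to 22292 in the other hearts.

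Of the 10 genes, Jup was differentially expressed, with about 3 times as much RNA at P7 as at P1, and none was differentially expressed in the other direction. A locus was called differentially expressed with a Benjamini-Hochberg adjusted p under 0.05 over all tested loci, with mean FPKM differing by a factor of 1.5 or more, from limma on log2(FPKM + 1). Among the 17960 tested loci with a symbol, 8.14% met this call, 7.74% with more and 0.401% with less RNA at P7, against 1 of the 10 members. Of all 43172 tested loci, 3.82% met it, 3.45% with more and 0.371% with less RNA at P7. Every P7 heart lay above every P1 heart for Jup and Dsg2, 2 of the 10, while the same held for 17.3% of the tested loci with a symbol. The reverse, every P7 heart below every P1 heart, held for 2.69% of those loci and for no member. Positive log2 fold changes were found for 9 of the 10 members and 67.6% of the tested loci with a symbol. The median log2 fold change was 0.36 over the 10 members and 0.19 over the tested loci with a symbol. The shares of members called and of members with separate hearts are thus read against backgrounds of similar size. A fold change on the log2(FPKM + 1) scale understates the change of weakly expressed genes.

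Promoters are shown for Jup, whose RNA differed most between the stages, for Dsp, the desmosomal partner with a like level at P7, and for Gja1, the most abundant member, whose P1 and P7 values overlapped. Each line holds the 250 bases before the start of the gene in RefSeq (GRCm38.p6), 5′ to 3′ on the gene's strand, in lower case. Capitals mark matches on either strand to GATA, which GATA factors recognise (TATC on the other strand), to GGTGTG, part of the element of T-box factors, to the NK2 core AAGTG and to TATAAA. The Jup stretch is chr11:100397791-100398040 (minus strand), the Dsp stretch chr13:38151044-38151293 (plus strand) and the Gja1 stretch chr10:56377050-56377299 (plus strand).
Jup: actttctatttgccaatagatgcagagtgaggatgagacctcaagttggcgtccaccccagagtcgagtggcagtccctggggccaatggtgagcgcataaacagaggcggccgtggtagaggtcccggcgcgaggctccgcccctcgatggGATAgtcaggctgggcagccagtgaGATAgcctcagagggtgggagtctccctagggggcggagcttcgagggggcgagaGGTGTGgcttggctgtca
Dsp: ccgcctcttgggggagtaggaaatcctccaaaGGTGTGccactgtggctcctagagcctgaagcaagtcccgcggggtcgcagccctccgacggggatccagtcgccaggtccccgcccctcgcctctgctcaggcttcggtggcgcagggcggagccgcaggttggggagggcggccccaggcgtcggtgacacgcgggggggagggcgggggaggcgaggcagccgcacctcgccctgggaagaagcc
Gja1: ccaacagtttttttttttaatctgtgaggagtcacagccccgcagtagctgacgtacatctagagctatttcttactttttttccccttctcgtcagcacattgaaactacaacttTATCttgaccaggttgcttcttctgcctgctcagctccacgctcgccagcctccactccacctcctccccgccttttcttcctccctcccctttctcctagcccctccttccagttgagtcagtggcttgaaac

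The Jup promoter held 2 GATA matches and 1 GGTGTG match, besides 2 CCAAT boxes (CCAAT) and 2 GC boxes (GGGCGG), and no TATAAA. The Dsp promoter held 1 GGTGTG match and 4 GC boxes, and no GATA match. The Gja1 promoter held 1 GATA match and 1 E-box (CANNTG), with no CCAAT or GC box and no GGTGTG. Among 27025 mouse promoters of this length, GATA occurred in 54.1%, GGTGTG in 16.2%, AAGTG in 40.8%, TATAAA in 13.0%, CANNTG in 66.0%, CCAAT in 34.5% and GGGCGG in 32.9%, so that each of these short words is common. The promoters of Gja5 and Ctnna3 were also searched. Only these 5 of the 10 members had a promoter in the set used, so Gjc1, Pkp2, Dsg2, Dsc2 and Cdh2 were not searched. The stretch before 1 start per gene was taken, while the data list 7 start sites each for Jup and Ctnna3. Gja5 held 1 match to GATA, 1 to AAGTG and 1 GC box, and Ctnna3 held only 1 GC box.

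Gja1 encodes the main connexin of working ventricular myocytes, and it was the most abundant member at both stages. Its locus lies on chromosome 10 of GRCm38 (56377300 to 56390419). In the P1 hearts it measured 295, 289, 254 and 285 FPKM, and in the P7 hearts 350, 257, 347 and 273 FPKM. The 2 groups overlapped: P7 hearts 1 and 3 were above every P1 heart, and P7 hearts 2 and 4 were within the P1 range. The mean was 280 ± 18 (SD, n = 4) at P1 and 307 ± 49 (SD, n = 4) at P7, a log2 fold change of 0.12 (95% interval -0.31 to 0.54, limma adjusted p = 0.726). The interval does not hold a doubling or a halving of Gja1. With median-ratio scaling, which sets the median locus of the hearts level, the value was -0.16 and with quantile normalization -0.054. GC correction gave 0.38 (limma adjusted p = 0.338) with separate hearts (exact permutation test, two-sided, p = 0.0286), so these data give no direction for Gja1.

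Gjc1 encodes a connexin of the early heart and of the adult conduction system (chromosome 11, 102799237 to 102819700). Its P1 hearts measured 37.6, 32.1, 26.1 and 55.9 FPKM and its P7 hearts 50.3, 41.8, 60.7 and 50.6 FPKM. P1 heart 4 lay among the P7 hearts and the other P1 hearts below all of them. On the log2 scale the change was 0.46 (95% interval -0.05 to 0.97, limma adjusted p = 0.320).

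Gja5 encodes the connexin of atrial and fast-conducting myocytes and of arterial endothelium (chromosome 3, 97032416 to 97053634). It had the lowest mean of the 10 members at both stages. The P1 hearts measured 12.3, 9.72, 7.89 and 14.8 FPKM, the P7 hearts 12.8, 11.97, 15.1 and 11.5 FPKM, and the groups overlapped. The log2 fold change was 0.21 (95% interval -0.24 to 0.66, limma adjusted p = 0.561), with -0.041 under median-ratio scaling, -0.049 under quantile normalization and 0.072 under GC correction. Of the other connexin and pannexin genes, 15 of 20 stayed below 1 FPKM in every heart and were not tested. Of the 5 that were tested, Gja4, which encodes a connexin of arterial endothelium, was differentially expressed. Gja4 measured 3.84, 3.37, 2.47 and 5.69 FPKM at P1 and 10.03, 9.65, 8.07 and 7.25 FPKM at P7, a log2 fold change of 1.04 (SE 0.22, limma adjusted p = 0.0256). Gja3, Gja6, Panx1 and Panx2 had log2 fold changes from -0.40 to 0.42 and did not pass the test.

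**Figure D1:**
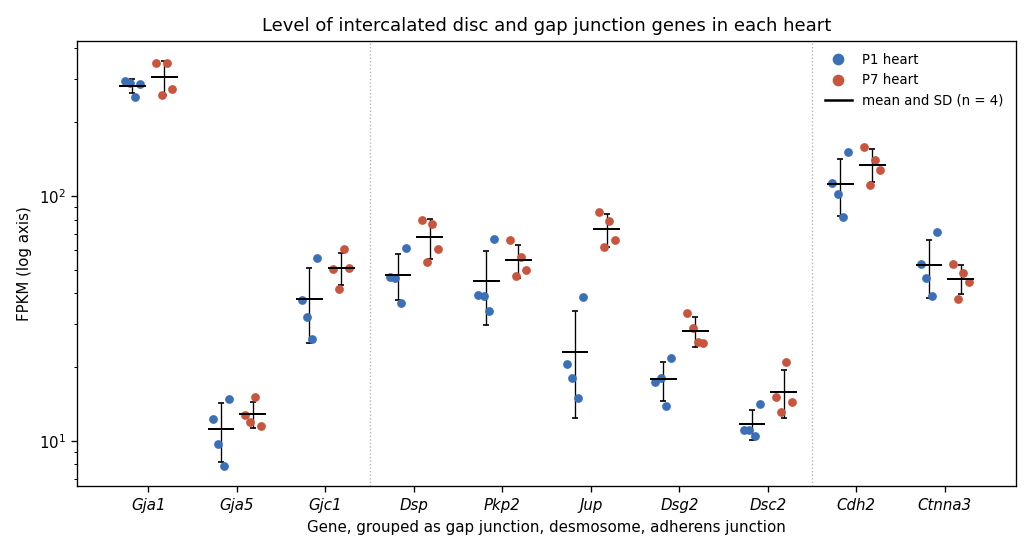
FPKM of the 10 genes on a log axis, 1 point per heart (P1 in blue, P7 in red), with the mean and SD of 4 hearts. The P7 hearts lie above all P1 hearts for Jup and Dsg2, and overlap the P1 hearts for the other 8 genes.

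Among the desmosomal genes, Jup encodes plakoglobin, an armadillo protein of desmosomes and adherens junctions and a close relative of β-catenin. Its locus lies on chromosome 11 (100368958 to 100397763), and no other locus with a symbol overlaps it. The P1 hearts measured 20.7, 17.999, 15.0 and 38.8 FPKM, and the P7 hearts 85.6, 61.6, 79.0 and 65.8 FPKM. P1 heart 4 stood above the other P1 hearts, and the lowest P7 heart was still above it. The mean rose from 23.1 ± 10.7 (SD, n = 4) to 73.0 ± 11.2 (SD, n = 4), a ratio of 3.16. The log2 fold change was 1.70 (95% interval 1.12 to 2.27, limma adjusted p = 0.00867; exact permutation test, two-sided, p = 0.0286, the smallest that 4 against 4 hearts allow). This change was larger than that of 99.6% of the tested loci with a symbol.

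The call for Jup held in 19 of 20 alternative settings of the fit, the exception being the fit without a filter on low values, in which the same fold change had an adjusted p of 0.0652. Leaving out each heart in turn gave 1.53 to 1.97. Median-ratio scaling gave 1.43 (limma adjusted p = 0.00345). Jup had the highest transcript GC content of the 10 members, 58.8%, the others lying between 42.2% and 52.8%. After a correction of each heart for its trend with GC content the log2 fold change was 1.28 (limma adjusted p = 0.0439). With GC correction and median-ratio scaling together it was 1.01 (limma adjusted p = 0.0175).

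Jup is also made by endothelial cells and other cells with cadherin junctions, and in whole hearts more cells of a type and more RNA per cell cannot be told apart. The fibroblast genes fixed as markers summed to 605 to 1223 FPKM in the P1 hearts and 1626 to 2001 FPKM in the P7 hearts, and 5 of 7 were differentially expressed, all with more RNA at P7. The endothelial genes summed to 149 to 231 FPKM at P1 and 286 to 430 FPKM at P7, and 4 of 8 were differentially expressed, likewise with more RNA at P7. None of the 8 cardiomyocyte genes was differentially expressed (limma; 3 at an unadjusted p under 0.05). Jup relative to the geometric mean of the endothelial genes was 0.956 to 1.53 at P1 and 2.01 to 2.39 at P7. Relative to the fibroblast genes it was 0.229 to 0.341 at P1 and 0.437 to 0.472 at P7. Jup was also higher in every P7 heart against each of these lists, by 1.99 and 1.61 times. These ratios build on the large change of Jup itself, and which cells hold its RNA was not tested. Of 16695 tested loci with a symbol and a value in every heart, 3.39% were higher in every P7 heart against the endothelial genes and 1.05% against the fibroblast genes. The 6 genes of stratified epithelium, a tissue rich in plakoglobin, summed to 1.54 to 2.17 FPKM at P1 and 1.58 to 3.93 FPKM at P7, and its defining genes Krt5, Krt14 and Epcam stayed at or below 0.399 FPKM in every heart. Krt10 measured 0.866 to 1.43 FPKM at P1 and 0.352 to 2.64 FPKM at P7, while Trp63 and Sfn lay higher in every P7 heart, at 0.628 to 0.696 and 0.211 to 0.376 FPKM. The 8 genes of epicardium and mesothelium summed to 12.5 to 31.6 FPKM at P1 and 17.4 to 29.2 FPKM at P7. Of these, 1 was differentially expressed, with more RNA at P7, and Jup was not set against this list.

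Dsp encodes desmoplakin, which links the desmosomal plaque to desmin (chromosome 13, 38151328 to 38198577). Its P1 hearts measured 46.7, 46.2, 36.6 and 61.1 FPKM and the P7 hearts 79.7, 53.7, 76.8 and 60.5 FPKM. P1 heart 4 lay above P7 hearts 2 and 4, and the other P1 hearts lay below all P7 hearts. Its log2 fold change was 0.50 (95% interval 0.04 to 0.96, limma adjusted p = 0.234).

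Pkp2 encodes plakophilin-2, the plakophilin of cardiomyocytes (chromosome 16, 16213318 to 16272712). Its P1 hearts measured 39.2, 38.9, 33.9 and 66.9 FPKM and its P7 hearts 66.2, 46.9, 56.0 and 49.6 FPKM. P1 heart 4 had the highest value of all 8 hearts, whereas the other P1 hearts lay below every P7 heart. Pkp2 differed by 0.32 on the log2 scale (95% interval -0.18 to 0.82, limma adjusted p = 0.441).

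Dsg2 encodes the desmoglein of cardiomyocytes. The P1 hearts measured 17.4, 18.1, 13.8 and 21.8 FPKM and the P7 hearts 33.3, 28.7, 25.4 and 25.0 FPKM, without overlap. The mean was 17.8 ± 3.2 (SD, n = 4) at P1 and 28.1 ± 3.8 (SD, n = 4) at P7, a ratio of 1.58. The log2 fold change of 0.64 (95% interval 0.22 to 1.05) did not pass the adjusted threshold (limma adjusted p = 0.0926; exact permutation test, two-sided, p = 0.0286). It passed in 3 of the 20 alternative settings: with FPKM of at least 1 asked of every heart, with sample quality weights, and without P1 heart 4, with limma adjusted p from 0.0317 to 0.0360. In these settings 2573 of 12730, 2951 of 17960 and 2835 of 17671 tested loci with a symbol were called. The main fit called 1462 of 17960. With median-ratio scaling and with quantile normalization its ratio of means was 1.33 (limma adjusted p = 0.160 and 0.176), and the hearts of the 2 stages overlapped (exact permutation test, two-sided, p = 0.0571 in both). The files place the Dsg2 locus on chromosome 18 at 20558074 to 20674324, a span shared with the loci Ttr and Gm16090. In GENCODE annotation of the same build the Dsg2 gene ends at 20604521. Ttr measured 0.374 to 4.43 FPKM at P1 and 0.977 to 1.43 FPKM at P7, below the lowest Dsg2 value of 13.8 FPKM.

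Dsc2 encodes the desmocollin of cardiomyocytes (chromosome 18, 20030109 to 20059554). Values at P1 were 11.1, 11.1, 10.5 and 14.2 FPKM and at P7 15.1, 13.1, 21.0 and 14.3 FPKM. P1 heart 4 was the only P1 heart that reached the P7 range. On the log2 scale Dsc2 differed by 0.40 (95% interval -0.03 to 0.82, limma adjusted p = 0.2998), and 0.65 (limma adjusted p = 0.125) after GC correction. All 5 desmosomal members thus had positive values, from 0.32 to 1.70, and 1 of the 5 passed the test. They stayed positive under every treatment of the scaling and of GC content that was tried, but some came close to 0: with median-ratio scaling Pkp2 had 0.054 and Dsc2 0.14, and with GC correction and median-ratio scaling together Dsp had 0.15.

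The 5 members are desmosomal genes of cardiomyocytes, though not of these cells alone, and most other desmosomal genes listed had low values. Of 13 other desmosomal genes, 8 had a mean under 0.1 FPKM over the hearts and 11 stayed below 1 FPKM in every heart, among them the desmogleins Dsg1a, Dsg1b, Dsg1c, Dsg3 and Dsg4, the desmocollins Dsc1 and Dsc3 and the plakophilins Pkp1 and Pkp3. The exceptions were Pkp4 and Perp. Perp, which encodes a tetraspan membrane protein of desmosomes and a p53 target, measured 253, 205, 191 and 190 FPKM at P1 and 429, 364, 544 and 387 FPKM at P7. Every P7 heart lay above every P1 heart, and the log2 fold change was 1.03 (SE 0.21, limma adjusted p = 0.0224). At P7 the mean of Perp, 431 FPKM, was above that of Gja1.

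**Figure D2:**
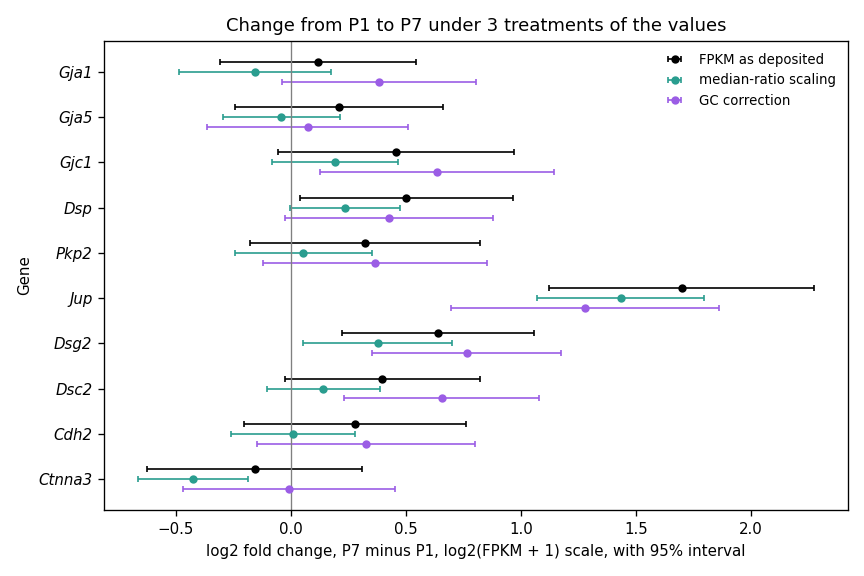
Log2 fold change from P1 to P7 of each gene with its 95% interval from limma, for FPKM as deposited, after median-ratio scaling and after GC correction. The interval of Jup stays above 0 in all 3, and the point of Gja1 lies on either side of 0 depending on the treatment.

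In the adherens junction, Cdh2 encodes N-cadherin, the classical cadherin of the disc (chromosome 18, 16588877 to 16809246). Its P1 hearts measured 113, 102, 81.9 and 151 FPKM and its P7 hearts 159, 110, 140 and 127 FPKM. The groups overlapped through P1 hearts 1 and 4. A log2 fold change of 0.28 was measured (95% interval -0.20 to 0.76, limma adjusted p = 0.480), with 0.0079 under median-ratio scaling. A locus named Gm15485 shares these coordinates and measured 28.3 to 45.1 FPKM at P1 and 24.6 to 33.1 FPKM at P7.

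Ctnna3 encodes αT-catenin, the α-catenin of heart muscle that also binds plakophilin-2. It was the only member with a negative value. The P1 hearts measured 52.6, 46.1, 38.9 and 71.1 FPKM and the P7 hearts 52.6, 37.8, 48.6 and 44.5 FPKM, so that all but P1 heart 4 lay in the same range. The log2 fold change was -0.16 (95% interval -0.62 to 0.31, limma adjusted p = 0.664), and 0.00054 without P1 heart 4. Median-ratio scaling gave -0.43 (limma adjusted p = 0.0436), but its ratio of means, 0.740, did not reach a 1.5-fold change. Ctnna3 spans 1574 kb of chromosome 10 (63429950 to 65003667), and 10 other loci of the files share its coordinates, 5 of them named Lrrtm3, a gene within Ctnna3. The highest of the 10 measured 15.8 to 29.3 FPKM at P1 and 14.1 to 17.998 FPKM at P7. Whether fragments were assigned by strand is not given in the sources used here, so reads of overlapping genes may not be separated.

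In FPKM as deposited, several of these overlaps came from P1 heart 4, which had the highest size factor of the P1 hearts, 1.16. With median-ratio scaling and that heart kept, Dsp separated the stages (exact permutation test, two-sided, p = 0.0286). Gjc1, Pkp2 and Dsc2 did not (exact permutation test, two-sided, p = 0.171, 0.686 and 0.171). The part of scaling in these overlaps was not tested. Without P1 heart 4 the log2 fold changes of the members lay between 0.00054 for Ctnna3 and 1.97 for Jup. Gjc1, Dsp and Pkp2 had log2 fold changes of 0.66, 0.63 and 0.53 in that fit and did not pass the test (limma adjusted p from 0.0637 to 0.0986), and Dsg2 passed it with 0.74. The same fit called 2835 of 17671 tested loci with a symbol, against 1462 of 17960 with all hearts. Without P1 heart 3, the lowest P1 heart for every member, the changes lay between -0.28 for Ctnna3 and 1.53 for Jup. Gjc1, Dsp, Pkp2 and Dsg2 then had 0.30, 0.39, 0.21 and 0.53 and did not pass the test (limma adjusted p from 0.184 to 0.677). That fit called 425 of 17796 tested loci with a symbol.

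The order of the mean levels at P1 was Gja1, Cdh2, Ctnna3, Dsp, Pkp2, Gjc1, Jup, Dsg2, Dsc2 and Gja5. Gja1 and Cdh2 did not overlap with the next gene in that order, and every later neighbour did. At P7 the order was Gja1, Cdh2, Jup, Dsp, Pkp2, Gjc1, Ctnna3, Dsg2, Dsc2 and Gja5. Jup moved from rank 7 to rank 3, and Ctnna3 from rank 3 to rank 7. Between neighbours at P7, the ranges of Jup and Dsp, Dsp and Pkp2, Pkp2 and Gjc1, Gjc1 and Ctnna3, and Dsc2 and Gja5 overlapped. At P1 every heart had less Jup than Gjc1, and at P7 every heart had more Jup than Dsp.

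Ratios of 2 genes within a heart do not depend on a single scale factor for that heart. A trend with GC content does not cancel in them. All ratios to genes or to marker lists were taken from FPKM without GC correction. Of 10 ratios, 4 separated the stages without overlap, and none passed after adjustment. Each of the 4 had the smallest p of the exact permutation test (two-sided, p = 0.0286, adjusted p = 0.0714 over the 10 ratios). How often other pairs of loci separate the stages was not computed, so this count has no background beside it. Jup and Gja4, each in 1 of the 4 ratios, were differentially expressed by themselves. Jup to Ctnnb1, plakoglobin to β-catenin, was 0.104, 0.0915, 0.0750 and 0.203 in the P1 hearts and 0.395, 0.384, 0.308 and 0.301 in the P7 hearts. The ratio was thus 3.13 times as high at P7, whereas Ctnnb1 itself measured 191 to 200 FPKM at P1 and 160 to 257 FPKM at P7. Pkp2 to Ctnna3, whose proteins bind each other, was 0.746, 0.843, 0.873 and 0.941 at P1 and 1.26, 1.24, 1.15 and 1.11 at P7. Dsg2 to Cdh2, desmoglein to N-cadherin, was 0.154, 0.177, 0.169 and 0.144 at P1 and 0.210, 0.260, 0.181 and 0.197 at P7.

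Gja5 was also set against Gja4, its partner in arterial endothelium. Gja5 to Gja4 was 3.20, 2.88, 3.19 and 2.61 in the P1 hearts and 1.27, 1.24, 1.87 and 1.59 in the P7 hearts, a geometric mean of 2.96 at P1 and 1.47 at P7. Relative to the geometric mean of 8 endothelial genes, Gja5 was 0.503 to 0.622 at P1 and 0.356 to 0.454 at P7. Relative to 7 arterial genes it was 1.84 to 2.34 at P1 and 1.42 to 1.78 at P7. Gja5 was lower in every P7 heart against both lists (exact permutation test, two-sided, p = 0.0286 each), while its own level overlapped between the stages. The endothelial genes had a median log2 fold change of 0.75, and 3 of the 7 arterial genes were differentially expressed, all higher at P7, with a median of 0.56. Of the same 16695 loci, 39.1% were lower in every P7 heart against the endothelial genes and 33.4% against the arterial genes, so that Gja5 shared this course with many loci. Cardiomyocytes also make Gja5, and the share of each cell type in its level was not tested. The 7 conduction system genes fixed as markers summed to 17.7 to 27.8 FPKM at P1 and 35.7 to 41.9 FPKM at P7. Of the 4 that were tested, 1 was differentially expressed, as was 1 of 6 atrial genes, both with more RNA at P7. Gja5 was not set against these lists.

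The other 6 ratios overlapped between the stages (exact permutation test, adjusted p from 0.286 to 0.571). Gja1 to Gjc1 was 5.10 to 9.73 at P1 and 5.39 to 6.95 at P7. Dsp to Pkp2 was 0.913 to 1.19 at P1 and 1.15 to 1.37 at P7. Gja1 to Cdh2 was 1.88 to 3.10 at P1 and 2.15 to 2.47 at P7, and Ctnna3 to Ctnna1, the α-catenin of most tissues, was 0.510 to 0.694 at P1 and 0.481 to 0.555 at P7.

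**Figure D3:**
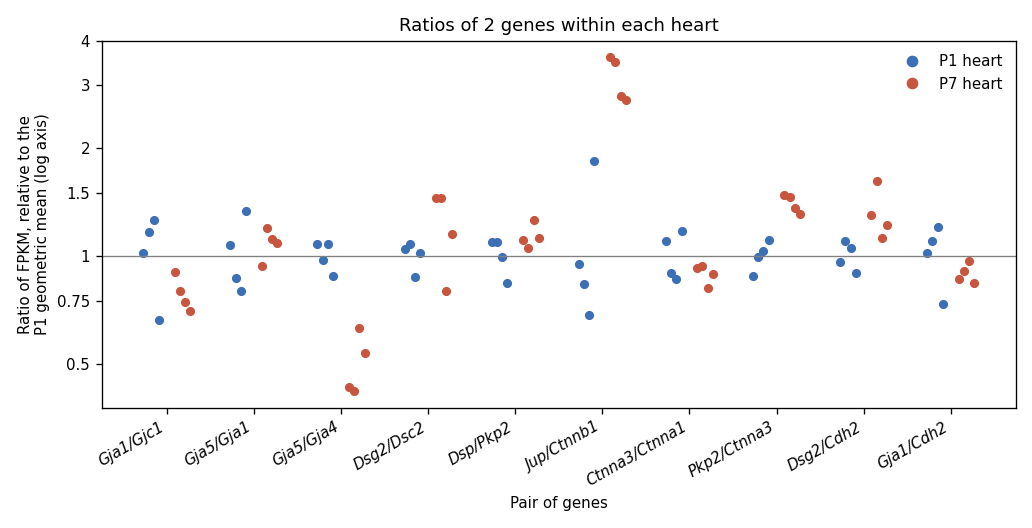
Ratio of FPKM of 2 genes in each heart on a log axis, divided by the geometric mean of the P1 hearts (P1 in blue, P7 in red). Gja5/Gja4, Jup/Ctnnb1, Pkp2/Ctnna3 and Dsg2/Cdh2 separate the stages, and the other 6 pairs overlap.

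Beside the geometric mean of 8 cardiomyocyte genes (Tnnt2, Actc1, Actn2, Mybpc3, Ryr2, Pln, Tnnc1 and Ldb3), Jup was again higher in every P7 heart and Ctnna3 lower. Jup was 0.0354 to 0.0523 of this mean at P1 and 0.0892 to 0.128 at P7, 2.65 times as high (exact permutation test, two-sided, p = 0.0286). Ctnna3 was 0.0906 to 0.101 at P1 and 0.0548 to 0.0788 at P7, a ratio of 0.706 (exact permutation test, two-sided, p = 0.0286). Of 16695 tested loci with a symbol and a value in every heart, 12.7% were higher in every P7 heart by this measure and 13.8% lower. Cdh2 varied least among the P1 hearts, from 0.200 to 0.212, and overlapped with P7, 0.158 to 0.238. The other 7 members overlapped as well, Dsg2 included, at 0.0294 to 0.0358 at P1 and 0.0286 to 0.0543 at P7.

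**Figure D4:**
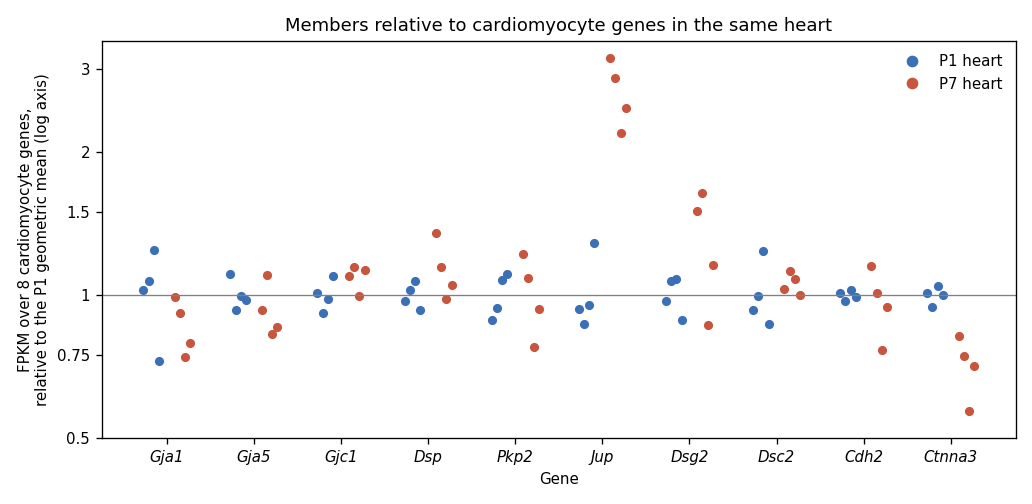
FPKM of each gene over the geometric mean of 8 cardiomyocyte genes in the same heart, on a log axis, divided by the P1 geometric mean (P1 in blue, P7 in red). Jup lies higher and Ctnna3 lower in every P7 heart.

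Around the members, 67 of 98 further junction genes with a locus were tested, and 11 of them (limma) were differentially expressed, all with more RNA at P7. Among all tested loci with a symbol, 8.14% were called and 7.74% with more RNA at P7, the background for this count and for those of the lists below. The median log2 fold change of the 67 genes was 0.39, against 0.19 for all tested loci with a symbol. All 11 had positive values in every setting of the fit. The number called depended on the setting: 2 of them, Perp and Xirp2, were called after GC correction, and Sorbs3 alone without P1 heart 2 or without P7 heart 3. Among all tested loci with a symbol, these settings called 408, 167 and 278, against 1462 in the main fit. Median-ratio scaling called all 11, and called Ank3, Ctnnal1 and Tbx18 lower.

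Of 19 tested adherens junction genes, 3 rose: the endothelial cadherin Cdh5, Nectin2, an immunoglobulin-like adhesion molecule, and Sorbs3, which encodes the vinculin-binding protein vinexin. Cdh5 measured 22.8 ± 6.5 FPKM at P1 and 44.8 ± 8.8 FPKM at P7 (SD, n = 4 each), which is 0.96 on the log2 scale (limma adjusted p = 0.0376), and Cdh5 is also 1 of the endothelial markers above. Nectin2 had a log2 fold change of 0.92 (limma adjusted p = 0.0345), and Sorbs3 of 1.08 (limma adjusted p = 0.0126). Sorbs2 was the most abundant of this list, with 375 ± 104 FPKM at P1 and 355 ± 64 FPKM at P7 (SD, n = 4 each), from a locus shared with Gm16352. The general catenins did not pass the test: Ctnnb1 had a log2 fold change of 0.10 and Ctnna1 of 0.0053.

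Of 24 tested disc partners, Des, Plec and Xirp2 rose. Des encodes desmin, the filament to which desmosomes attach. It measured 94.7, 85.4, 67.3 and 172 FPKM at P1 and 209, 205, 383 and 217 FPKM at P7, a log2 fold change of 1.30 (limma adjusted p = 0.0345). Plec encodes plectin, a linker of desmin, and had a log2 fold change of 1.07 (limma adjusted p = 0.0464), from a locus shared with Parp10. Xirp2, an actin-binding Xin-repeat gene of the disc, rose from 2.70 ± 1.23 to 10.1 ± 5.0 FPKM (SD, n = 4 each), by 1.53 on the log2 scale (limma adjusted p = 0.0220). Popdc2 was the most abundant of this list, with 586 ± 68 FPKM at P1 and 927 ± 181 FPKM at P7 (SD, n = 4 each), from a locus shared with Cox17, without passing the test (log2 fold change 0.65, limma adjusted p = 0.134).

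Of 17 genes of connexin transcription, trafficking and phosphorylation, Src, Tbx2 and Irx3 rose. Src encodes a tyrosine kinase that phosphorylates connexins, and its log2 fold change was 0.94 (limma adjusted p = 0.0334). Tbx2 encodes a T-box repressor of the atrioventricular canal and Irx3 a homeobox factor of the ventricular conduction system. Their log2 fold changes were 1.07 (limma adjusted p = 0.0150) and 1.06 (limma adjusted p = 0.0334), both from mean levels under 5 FPKM at P1. Nedd4, a ubiquitin ligase that acts on the Gja1 protein, was the most abundant of the list, with 168 ± 43 FPKM at P1 and 145 ± 27 FPKM at P7 (SD, n = 4 each), without passing the test (limma adjusted p = 0.621). In this list 9 of 17 genes lay higher in every P7 heart, as did 17.3% of the tested loci with a symbol. Among the 9 were the cardiac factors Gata4, Nkx2-5 and Tbx5, with log2 fold changes of 0.64, 0.58 and 0.58. These 3 did not pass the test (limma adjusted p from 0.113 to 0.177).

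**Figure D5:**
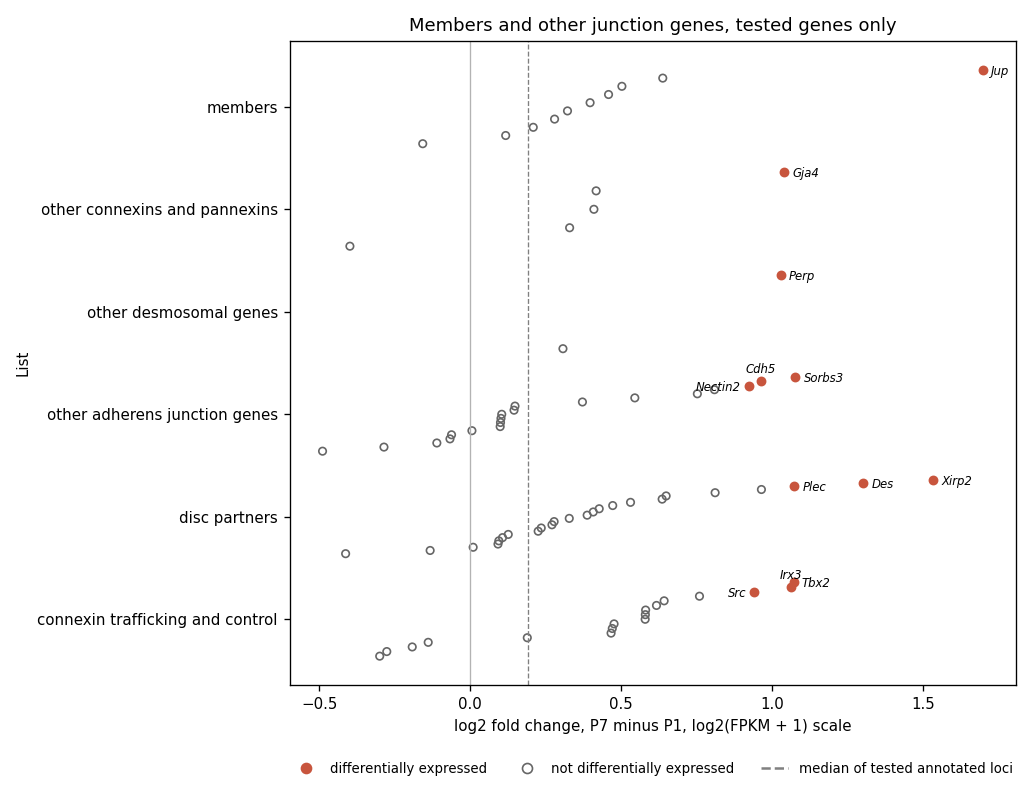
Log2 fold change from P1 to P7 of the members and of the tested genes of 5 further lists, 1 point per gene, with differentially expressed genes filled and named. The 12 named genes lie to the right of 0, and the dashed line marks the median of the tested loci with a symbol, 0.19.

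By the shape of their values over the 8 hearts, the loci most like Gja1 were Slc25a26, Pabpc4l and AC140457.2, with a root-mean-square difference of the centred log2 profiles of 0.03 to 0.05 among 13531 loci compared. For Gja5 these were Pigl, Hnrpdl and Hfe (0.07 each), and for Dsp Hsdl1, Epm2a and Itga6 (0.05 to 0.06). None of these is a junction gene of the lists. For Jup, added after its values were seen, the nearest were Efna1, Col3a1 and Cacnb3 (0.097, 0.14 and 0.15), of which Col3a1 is 1 of the 7 fibroblast genes.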

How the data were processed

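Hearts of 4 P1 and 4 P7 male mice were flash frozen, and each gave 1 ribodepleted ScriptSeq v2 library, sequenced paired-end. Alignment to GRCm38 (Ensembl genes), summation per locus and normalization were done for the authors by a provider, and the deposited unit is FPKM. The aligner and the use of strand are not given in the sources used here. Positions are given counting from 1. Transcript GC content and gene ends came from GENCODE (GRCm38), and promoters from RefSeq.

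Symbols were split at commas and matched without regard to case, and of several loci the one with the highest mean FPKM was taken. Of 196 genes listed, 194 had a locus. The members and lists were chosen with earlier results of these data known.

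The 43172 loci that reached 1 FPKM in any heart were compared on log2(FPKM + 1), a pseudocount of 1, with limma 3.58.1 (R 4.3.3; lmFit, eBayes with trend, all 8 hearts, no covariates). P-values were Benjamini-Hochberg adjusted over all loci tested. The study states the thresholds of 0.05 and 1.5-fold but no test. Ratios and levels were compared with exact two-sided permutation tests, in Python 3.11.15. Hearts are separate animals. The named genes were all members, in each further list the differentially expressed genes and the most abundant one, and the 3 loci most like Gja1, Gja5 and Dsp. Others were named after their values were seen. Alternatives were another pseudocount (0.1), other filters, median-ratio scaling, quantile normalization, sample weights, a block on replicate number, no trend, the adjusted p alone, each heart left out, and correction for transcript GC content (lowess span 0.3). The scripts were tested on simulated data.

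Hearts that share a replicate number did not deviate together as a set (correlations of 0.058, 0.218, -0.276 and -0.124). Their mean was -0.031, against 0.010 for hearts with different numbers. So few correlations cannot exclude a pairing, and the sources used here name none.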

Additional observations from a re-analysis of the deposited data

Results flagged for a closer look

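In 5 of 68 groups of 4 hearts, from 24 named genes and the 10 within-heart ratios at both stages, 1 heart lay far from the other 3 by Dixon's test, where chance gives about 3.4. At P1, Pkp2 measured 66.9 FPKM in heart 4 against 33.9 to 39.2 in the others, and Dsc2 measured 14.2 FPKM in the same heart against 10.5 to 11.1. At P7, Nectin2 measured 21.0 FPKM in heart 3 against 15.9 to 16.7, and Des measured 383 FPKM in heart 3 against 205 to 217. Sorbs3 measured 15.2 FPKM in P7 heart 2 against 12.2 to 12.6. P1 heart 4 and P7 heart 3 also had the highest size factor of their stage, 1.16 and 1.30, and the part of this in the flagged values was not tested.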

How the results depend on the processing

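Of 200 fold changes of members under alternatives, 190 kept their direction and their side of the threshold. Gja1 turned to -0.16 with median-ratio scaling and -0.054 with quantile normalization. Gja5 turned to -0.041, -0.049 and, with GC correction and median-ratio scaling, -0.18. Ctnna3 turned to 0.00054 without P1 replicate 4 (-0.28 to 0.00054 with each heart left out). The number of members differentially expressed, 1 of 10, was 0 without a filter on low values, 2 where every heart had to reach 1 FPKM or with sample quality weights, and 1 to 2 with each heart left out, 2 of them without P1 replicate 4, where Dsg2 joins Jup. The number of further junction genes, 11, was 1 without a filter, 17 where every heart had to reach 1 FPKM and with sample quality weights, 2 with GC correction, 5 with GC correction and median-ratio scaling, and 1 to 17 with each heart left out. It was 5 without P1 replicate 1, 1 without P1 replicate 2, 2 without P1 replicate 3, 17 without P1 replicate 4, and 2, 6, 1 and 6 without P7 replicates 1 to 4. The calls among all loci with a symbol moved too, from 1462 of 17960 in the main fit. They were 231 of 39614 without a filter and 2573 of 12730 where every heart had to reach 1 FPKM. Of 17960, they were 2951 with sample quality weights, 408 with GC correction and 839 with GC correction and median-ratio scaling. With each heart left out, in the order above, they were 820, 167, 425, 2835, 298, 1012, 278 and 725. The fit without a filter tests 80155 loci. In it the unadjusted limma p of Jup also rose, from 2.7e-05 in the main fit to 5.1e-04. The cause of these shifts was not tested. Median-ratio scaling moved the median of the tested loci with a symbol from 0.19 to -0.01. It called 15 further junction genes, 12 higher and 3 lower, against 11 and 0. Among all tested loci with a symbol it called 1348 higher and 765 lower, against 1390 and 72.

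With the replicate number as a block, 1 member and 8 further junction genes were called, and with GC correction and the block 1 and 2. Of the 17960 tested loci with a symbol, 1052 and 385 were called in these fits. The sources used here name no pairing of hearts by number.

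The exact permutation test reached its smallest p for 2 members, Jup and Dsg2. In settings added after seeing the data it did so for 4 after GC correction (Gja1, Jup, Dsg2 and Dsc2), 3 with median-ratio scaling (Dsp, Jup and Ctnna3), 2 with quantile normalization (Jup and Ctnna3) and 3 with GC correction and median-ratio scaling (Jup, Dsc2 and Ctnna3). Dsg2 had an exact permutation p = 0.0571 in the last 3 of these, and Ctnna3 was lower at P7. Of 80 values over the cardiomyocyte genes with a marker left out, 80 moved by less than 1 SD. For ratios with a heart left out such a count tells nothing, since leaving out 1 of 4 hearts cannot move a mean that far. The log2 difference of Jup to Ctnnb1 then ranged from 1.46 to 1.94 and that of Gja5 to Gja4 from -1.13 to -0.93. For Pkp2 to Ctnna3 it was 0.43 to 0.54 and for Dsg2 to Cdh2 0.28 to 0.46. With 1 heart left out the smallest p is 0.0571, so no ratio could pass. The number of hearts limits the precision, and depth is unknown.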
